A study of Mus musculus with 185 samples.

Results

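The genes described here encode the proteins of the cytosolic ribosome, the particle that translates every nuclear-encoded mRNA of a cell. They were taken from the deposited log2 expression table by name: every gene called Rpl or Rps followed by a number and at most 1 of the letters a, x, y or l, together with Rplp0, Rplp1, Rplp2 and Rpsa. The Rps6k kinases, which are enzymes and not ribosomal proteins, were left out, with 8 entries. In all, 80 of the 17171 genes in the table were members. Of these, 46 encode core proteins of the large subunit and 30 core proteins of the small subunit, and the remaining 4, Rps27l, Rps4l, Rpl39l and Rpl10l, are paralogs of core genes that the name rule also takes in.

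The study captured single cardiac fibroblasts from C57BL/6 mice of about 5 months on Fluidigm C1 chips after sorting for live cells without the endothelial marker CD31 and the leukocyte marker CD45, and the cells used here fall in 9 classes. In Postn MCM/+;R26-eGFP mice and Tcf21 MCM/+;R26-eGFP mice, tamoxifen switches on eGFP in cells that express Postn (an activation gene) or Tcf21 (a gene of resident fibroblasts) while the drug is given. The tracer marks only cells in which recombination took place, so an untraced cell may still express the driver, and the knock-in occupies 1 allele of the driver gene. Activated cells came from hearts after myocardial infarction (MI) by permanent coronary ligation, and resident cells from hearts that the labels call uninjured (Tcf21-traced cells) or name no injury for. The study's own text places resident cells in uninjured or sham-operated hearts in some passages, and in others speaks of uninjured or remote regions of the heart, so for both resident classes it is uncertain whether the whole heart was free of injury.

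The classes are named here by tracer and Postn status. The resident-cell capture held 33 cells: 12 resident Postn- CD31- CD45- cells, 17 resident Tcf21-traced cells, 1 resident Postn+ cell and 3 resident cells positive for Postn and Tcf21. The Postn-tracer capture held 57 cells after MI, with 24 activated Postn- cells, 27 activated Postn-traced Postn+ cells and 6 untraced Postn+ cells. The Tcf21-tracer capture held 63 cells after MI, of which 44 were activated Tcf21-traced cells and 19 were untraced Postn+ cells. The scar capture held 32 cells, 29 untraced cells from the scar and 3 untraced Postn+ cells. No label names the mouse of a cell, so each class counts as 1 sample, its cells are not independent replicates, and no difference between classes was tested. Classes from different captures differ in capture as well, and the share of each cannot be told apart.

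Ribosomal proteins are made in near-equal numbers, because each ribosome takes 1 copy of almost every one of them. Their mRNAs are short, abundant and stable, and begin with a run of pyrimidines (a TOP motif) through which growth signals govern their translation. Fibroblasts that turn to making matrix have a high demand for protein synthesis, so the part of the mRNA pool that encodes ribosomes is a natural measure to compare between resident and activated cells.

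The labelled cell type was checked on marker genes. At least 3 of the 6 fibroblast markers (Col1a1, Col1a2, Col3a1, Dcn, Pdgfra and Tcf21) were above 5 TPM (the length-scaled share of the transcripts of a cell, on a total of 1000000) in 180 cells, and the 6 genes held 1.74% of all TPM on average, with Dcn the most abundant. The 5 endothelial markers found in the table held 0.00269% and the 6 myeloid markers 0.00611%, and at least 3 of them were detected in 0 cells and 1 cell. At least 3 of the 6 smooth muscle markers were detected in 22 cells, with Tagln the most abundant. Pericyte markers held 0.0133%, epicardial markers 0.00313% and cardiomyocyte markers 0.00257%, so every other cell type was far below the fibroblast list.

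Start regions are shown for 8 members on which the description below turns: the abundant Rpl41 and Rps27, the least abundant small-subunit core gene Rps15a, and Rpl15, Rpl38, Rps10, Rps26 and Rps27l, which differed between classes. Each runs 5′ to 3′ on the strand of the gene, from 60 bases before to 20 bases after the start that RefSeq annotates on build GRCm38.p6. Capitals mark any of 4 motifs, read on both strands: CTTTCC and CTCTTT, which are pyrimidine runs like those of TOP mRNAs and overlap in CTCTTTCC, CGGAAG, the core of the ETS family of factors, and TATAAA, the TATA box.
Rpl41, chr10:128549149-128549228, minus strand: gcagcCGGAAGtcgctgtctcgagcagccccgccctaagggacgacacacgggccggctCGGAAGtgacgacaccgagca
Rps27, chr3:90213629-90213708, minus strand: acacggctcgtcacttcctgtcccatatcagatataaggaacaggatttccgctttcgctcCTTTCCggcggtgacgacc
Rps15a, chr7:118116128-118116207, minus strand: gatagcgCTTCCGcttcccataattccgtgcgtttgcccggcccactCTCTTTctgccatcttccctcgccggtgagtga
Rpl15, chr14:18270967-18271046, minus strand: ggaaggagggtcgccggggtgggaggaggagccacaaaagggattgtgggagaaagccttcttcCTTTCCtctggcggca
Rpl38, chr11:114668520-114668599, plus strand: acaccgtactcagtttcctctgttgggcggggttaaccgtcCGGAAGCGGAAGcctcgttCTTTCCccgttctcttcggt
Rps10, chr17:27635225-27635304, minus strand: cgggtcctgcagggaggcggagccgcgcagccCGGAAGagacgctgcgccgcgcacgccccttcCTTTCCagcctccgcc
Rps26, chr10:128626487-128626566, minus strand: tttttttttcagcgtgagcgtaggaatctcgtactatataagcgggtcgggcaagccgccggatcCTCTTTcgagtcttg
Rps27l, chr9:66946026-66946105, plus strand: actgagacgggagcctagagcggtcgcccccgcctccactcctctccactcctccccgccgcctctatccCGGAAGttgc

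RefSeq start regions were at hand for 59 of the 80 members and for 27025 genes in all. A nearer background is given by the 11390 other genes of the expression table with a start region. In the 80-base window, CTTTCC was found in 12 members (20.3%), in 6.86% of all genes and in 6.29% of the other genes of the table. CTCTTT was found in 9 members (15.3%), in 6.18% and in 4.61%. CGGAAG was the most frequent of the 4, with 20 members (33.9%) beside 8.38% of all genes and 14.6% of the other genes of the table. TATAAA stood in 1 member (1.69%), in 4.75% and in 2.83%. Over the whole 300-base region, CGGAAG was found in 41 members (69.5%), in 17.2% of all genes and in 28.3% of the other genes of the table. These matches describe letters near the annotated starts and no binding was measured. Members without an entry included Rpl3, Rpl7, Rpl8, Rpl17, Rpl21, Rpl23a, Rpl29, Rpl30, Rpl32, Rpl36, Rplp1, Rps4l, Rps14, Rps20, Rps27a and Rps29.

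The members made up 0.466% of the genes and held a median of 11.96% of the summed TPM of a cell. Ranked by mean TPM over all cells, 31 members were among the 100 most abundant genes, with Rpl41 at rank 9 and Rps19 at rank 11. Nearly all members were found in nearly all cells: 73 of the 76 core genes were above 5 TPM in at least 90% of cells. Among the 17171 genes only 616 passed 5 TPM in at least 75% of cells, and 77 of these were members. Comparisons of the members with all genes are therefore accompanied by comparisons with these 616 widely detected genes.

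The most abundant members were Rpl41, which encodes the smallest protein of the large subunit, at a mean of 6319 TPM, and Rps19, a protein of the small-subunit head that is mutated in Diamond-Blackfan anemia, at 5650 TPM. Rps27 (3871 TPM), Rpl32 (3748 TPM), Rps18 (3428 TPM), Rpl13 (3360 TPM), Rpl9 (3208 TPM) and Rps9 (3011 TPM) followed, and these 8 genes held 26.9% of the summed member TPM. The median core gene stood at 1277 TPM, with 1166 TPM for the large and 1363 TPM for the small subunit. Although their proteins are needed in near-equal amounts, only 54 of the 76 core genes were within 2-fold of that median, and the highest and lowest core genes were 168-fold apart.

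At the other end, Rps15a, a protein of the small-subunit body, was lowest among core genes at 37.5 TPM, and Rpl22, an RNA-binding protein on the outside of the large subunit, followed at 68.3 TPM. Rpl18 (195 TPM), Rpl27a (283 TPM) and Rpl31 (336 TPM) were also low. The table lists pseudogene copies of several members as genes of their own, and reads from nearly identical copies can be assigned to either, so the level of a member with such copies is uncertain. Rps15a has 2 listed copies, Rps15a-ps4 and Rps15a-ps6, at 23.2 TPM and 23.7 TPM, each close to the level assigned to Rps15a itself. Rpl31-ps12, a copy of the low Rpl31, was detected in 51.9% of cells, and Rpl14-ps1 in 83.8%. Copies that are not listed could not be examined.

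The 4 paralogs stood apart from the core genes. Rps27l, a p53-responsive paralog of Rps27, was detected in 140 cells (75.7%, 95% interval 68.8 to 81.7). Rps4l, a paralog of the X-linked Rps4x, was detected in 60 cells (32.4%) at a mean of 116 TPM. The testis paralogs were nearly or wholly silent: Rpl39l passed 5 TPM in 1 cell (0.541%) and Rpl10l in 0 cells.

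Spread between cells differed as well. Over all cells the SD of log2 (TPM+1) was largest for Rps27l (4.04), Rps4l (3.69), Rpl36a (3.20), Rpl29 (3.17) and Rpl38 (3.10). It was smallest, apart from the silent Rpl10l and the near-silent Rpl39l (0.54), for Rpl21 (1.69), Rpl37 (1.72) and Rps15a (1.83). The variable core genes were abundant in most cells and undetected in others. Rpl36a, for example, passed 5 TPM in 164 cells (88.6%), so cells at 0 set much of its SD. The order of the core genes was kept between captures, with Spearman correlations of 0.843 to 0.980 between capture means over 76 genes, which share gene length and sequence composition and are not independent replicates.

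**Figure D1:**
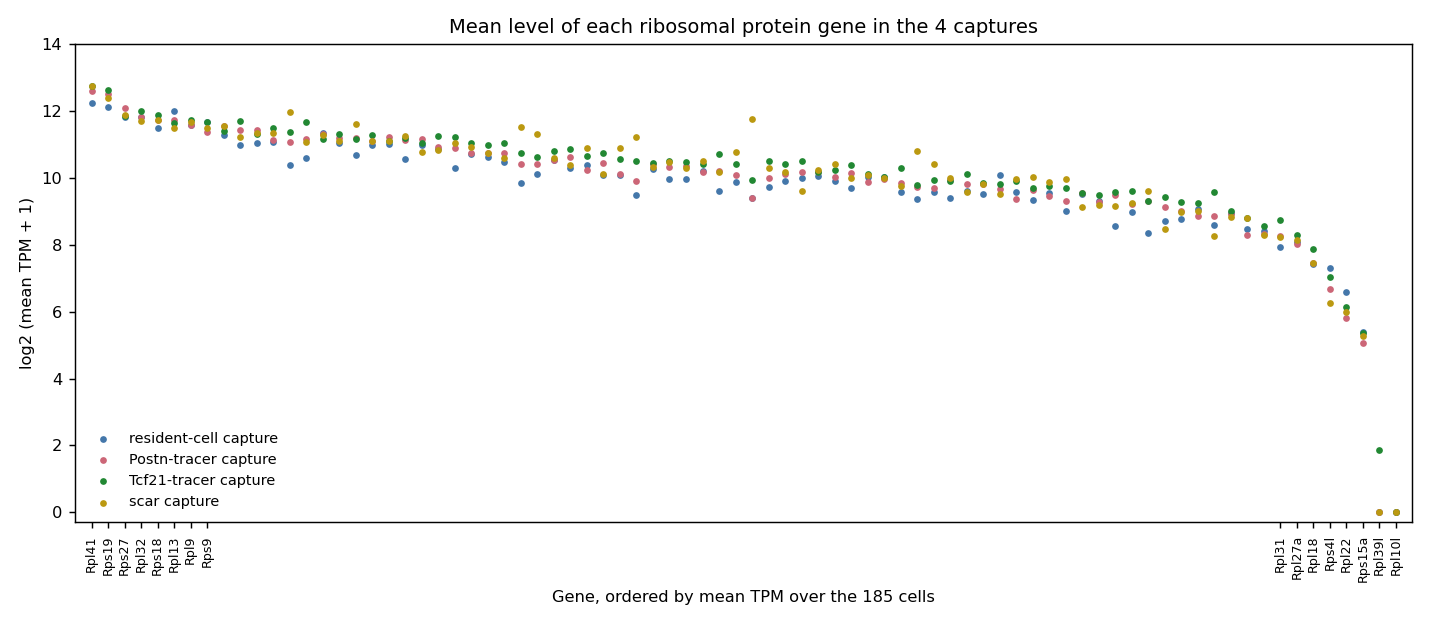
Mean level of each member in each of the 4 captures, as log2 of mean TPM plus 1 (vertical axis), with genes ordered by their mean over all cells and the 8 highest and 8 lowest named. Rpl41 and Rps19 lie highest, with overall means of 6319 and 5650 TPM, and among core genes Rps15a and Rpl22 lie lowest, with 37.5 and 68.3 TPM.

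The summed member share was first compared between classes as the percent of the TPM of a cell. In resident Postn- cells it ran from 6.93 to 15.3% with a median of 9.23%, and in resident Tcf21-traced cells from 6.83 to 14.1% with a median of 10.4%. In activated Postn- cells it ran from 6.49 to 15.4% with a median of 9.73%. These 3 classes covered nearly the same range.

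The remaining classes after MI were higher. The share ran from 6.50 to 19.6% (median 12.9%) in Postn-traced cells and from 8.03 to 18.4% (median 12.6%) in activated Tcf21-traced cells. Untraced Postn+ cells ran from 5.66 to 20.7% with a median of 12.7%, and the untraced scar cells from 1.04 to 26.1% with a median of 12.4%. All classes overlapped: the lowest cells of the higher classes lay below the medians of the lower ones. The single resident Postn+ cell had a share of 7.62%, and the 3 resident cells positive for Postn and Tcf21 had shares of 7.63%, 8.44% and 13.8%.

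**Figure D2:**
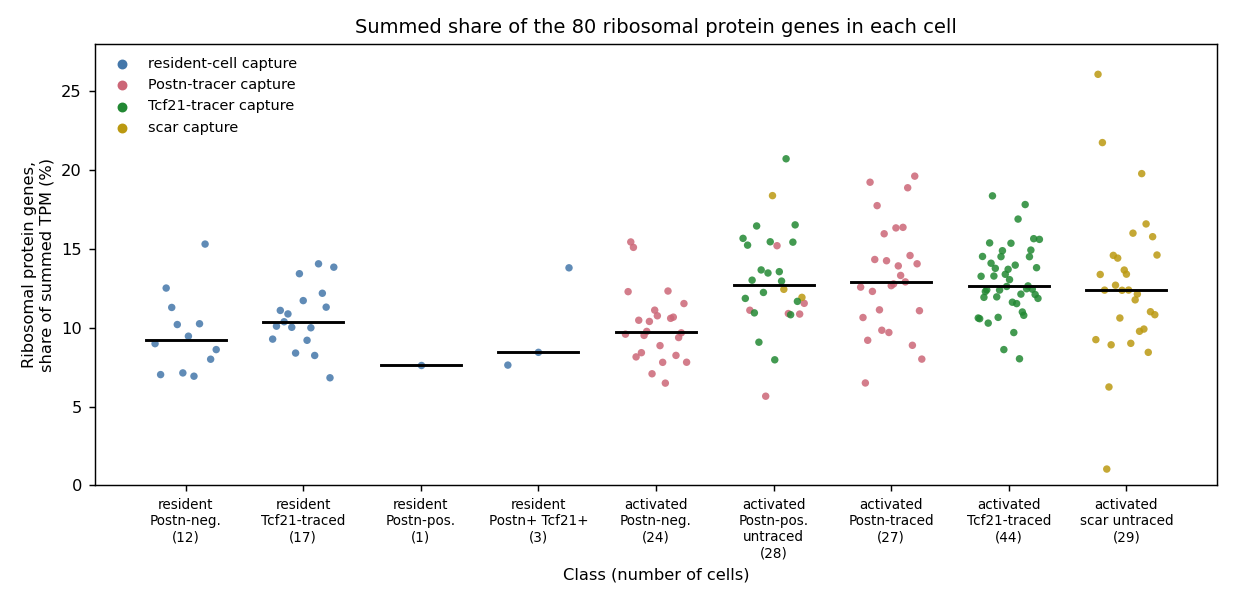
Summed TPM of the 80 members as a percent of the TPM of a cell (vertical axis), by class, with 1 point per cell coloured by capture and a line at each class median. Resident Postn-, resident Tcf21-traced and activated Postn- cells have medians from 9.23 to 10.4%, the 4 resident cells with Postn lie from 7.62 to 13.8%, and Postn+, traced and scar cells after MI have medians from 12.4 to 12.9%.

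By capture, the mean share was 10.1 ± 2.30% (SD over cells) in the resident-cell capture, 11.6 ± 3.27% in the Postn-tracer capture, 13.1 ± 2.45% in the Tcf21-tracer capture and 12.9 ± 4.59% in the scar capture. The untraced Postn+ class was spread over 3 captures. Its mean was 10.9 ± 3.05% over 6 cells of the Postn-tracer capture and 13.5 ± 2.96% over 19 cells of the Tcf21-tracer capture, and its 3 scar-capture cells stood at 11.9%, 12.4% and 18.4%. The same class thus differed between captures by nearly as much as different classes did.

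Most cells of every class had most members above 5 TPM. Of the 80 members, a median of 74 were above 5 TPM in resident Postn- cells (69 to 77) and 74 in resident Tcf21-traced cells (68 to 78). The median was 75 in activated Postn- cells (71 to 78), 77 in Postn-traced cells (72 to 78) and 77 in activated Tcf21-traced cells (74 to 78). Untraced Postn+ cells had a median of 77 with 1 cell as low as 38, and scar cells had the same median with a lowest value of 1. The median number of all genes above 5 TPM was likewise lower in resident Postn- (2091.5), resident Tcf21-traced (2264) and activated Postn- cells (2342) than in activated Tcf21-traced (3134) and Postn-traced cells (3643). Within classes the number of members detected went with the number of all genes detected, with Spearman correlations from 0.376 over 27 Postn-traced cells to 0.859 over 29 scar cells. The summed share ran with the number of genes in neither direction throughout: the correlation was -0.406 over 12 resident Postn- cells, -0.302 over 27 Postn-traced cells and 0.166 over 44 activated Tcf21-traced cells. All of these come from the same libraries and share their depth.

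In the scar capture, 7 cells had under 50% of the capture's median number of genes, and no other capture had any. In 5 of them, all untraced scar cells, only 141 to 264 genes were above 5 TPM. These 5 cells had 1, 6, 11, 10 and 9 members and shares of 1.04%, 8.44%, 19.8%, 12.1% and 12.4%. Rpl38 alone made up 4.76% and 4.26% of all TPM in the cells with 6 and 11 members. With the low cells left out, scar cells averaged 75.2 ± 6.25 members and a share of 12.6 ± 3.29%, against 63.4 ± 26.6 members and 12.7 ± 4.71% with them. Apart from the cell with 1 member, the shares of these 5 cells lay within the 6.25 to 21.7% covered by the 23 scar cells that were not low.

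**Figure D3:**
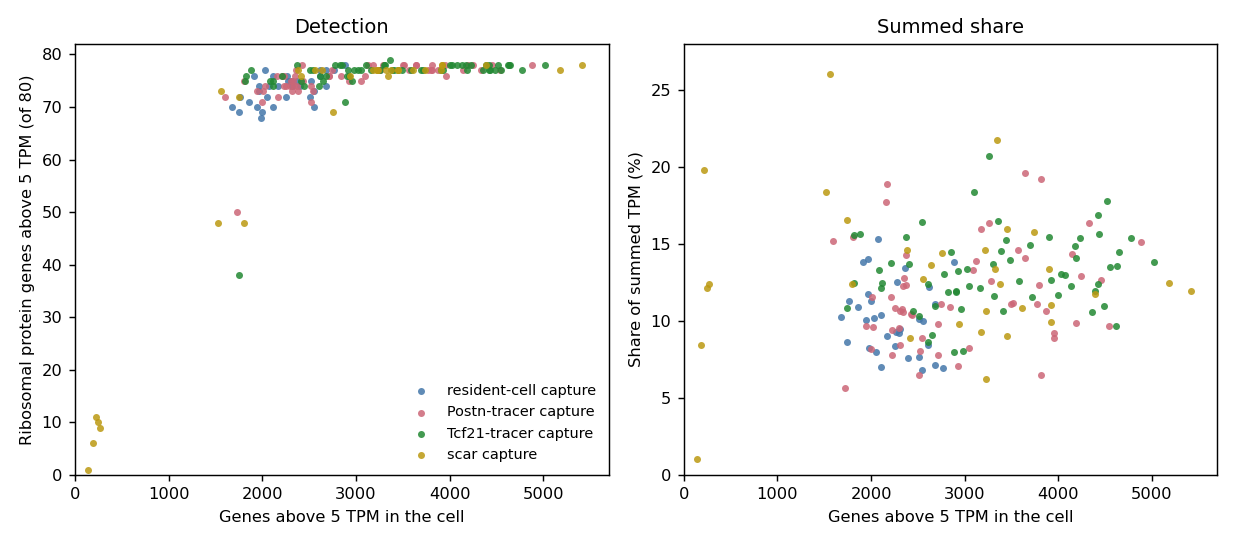
Members above 5 TPM and summed member share of each cell against the number of genes above 5 TPM in that cell. The 5 scar cells with the fewest genes, 141 to 264, have 1 to 11 members but shares from 1.04 to 19.8%.

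The balance of the subunits was taken as a ratio in each cell. The summed TPM of large-subunit core genes was 1.31 ± 0.146 times that of small-subunit core genes in Postn-traced cells, 1.31 ± 0.141 in activated Tcf21-traced cells and 1.32 ± 0.199 in activated Postn- cells. It was 1.37 ± 0.328 in resident Tcf21-traced cells and 1.51 ± 0.274 in resident Postn- cells. In scar cells it was 1.44 ± 0.565 over the 28 cells with any small-subunit signal. Untraced Postn+ cells stood at 1.47 ± 0.337 over all captures, and their 6 cells of the Postn-tracer capture had the highest mean, 1.69 ± 0.579. That mean includes 1 cell with 50 members and a ratio of 2.80. The median of these 6 cells, 1.51, lay below the median of 1.54 in resident Postn- cells. The ranges of 1 SD around the means overlapped throughout.

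Differences between classes were then taken for each member as the difference of class means of log2 (TPM+1), for 79 members and 15733 genes that passed 5 TPM in at least 1 cell. A mean on this scale combines level and detection, so a cell at 0 lowers it strongly. Within the Postn-tracer capture, cells traced for Postn were compared with activated Postn- cells. The mean share was 13.2 ± 3.46% in the former and 10.1 ± 2.22% in the latter. The difference of 3.15 percentage points was smaller than the SD of the traced class and larger than that of the Postn- class. Of the 27 traced cells, 22 lay above the median Postn- cell and 7 above the highest.

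In the same comparison 20 members were more than 1 log2 unit higher in traced cells, or 25.3%, while 16.7% of all genes and 33.3% of widely detected genes were that much higher. None, or 0 members, were more than 1 log2 unit lower, where all genes gave 2.35% and widely detected genes 9.09%. The share of higher members was thus below that of widely detected genes in this setting. These include the members themselves, and are not matched to them in detection, since 73 of 76 core genes passed 5 TPM in at least 90% of cells. With medians over cells 11 members (13.9%) stood beside 22.7% of widely detected genes. With each cell centred on its median gene there were 57 members (72.2%) beside 52.1% of widely detected and 33.2% of all genes. Centring shifts every gene of a pair alike, so this change of order decides nothing. The member median lay 0.19 log2 units above that of widely detected genes in the main and centred settings. With medians over cells it lay 0.15 above. The count depends on where the cut falls, so no difference particular to the members was read from it. The median member was 0.73 log2 units higher, the median of all genes 0.19 higher and that of widely detected genes 0.53 higher, and 75 members were above 0. On the TPM scale, where cells at 0 weigh less, 67 of 76 core genes (88.2%) were higher in traced cells, where 51.5% of all genes and 47.1% of the 539 other widely detected genes were, with a median ratio of 1.31 and a range from 0.903 (Rpl8) to 2.20 (Rpl15). The other widely detected genes together went the other way, with 47.3% of TPM in Postn- and 43.7% in traced cells. Smooth muscle markers held 0.0753% of TPM in traced and 0.0106% in Postn- cells, and cardiomyocyte markers, led by Tnnt2, 0.00943% and 0.000837%. Epicardial markers went the other way, with 0.00116% and 0.0116%, as did endothelial markers, with 0.00203% and 0.00626%. The epicardial SD over Postn- cells was 0.0569%, which is what 1 cell carrying the whole value would give. Only 1 Postn- cell had at least 3 of the 6 epicardial markers, so the epicardial direction rests on 1 cell. The part of these lists in the share was not tested.

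The largest differences were in Rps27l, Rps4l and Rpl39. Rps27l was detected in 16 of 24 Postn- cells (66.7%, interval 44.7 to 84.4) and in 27 of 27 traced cells, and its log2 level ran from 0 to 10.60 with a median of 7.08 in the former and from 4.72 to 10.63 with a median of 9.34 in the latter. Its mean was 3.29 log2 units higher in traced cells. Rps4l was 2.77 higher, with detection in 14 of 27 traced cells (51.9%, interval 31.9 to 71.3) and 4 of 24 Postn- cells (16.7%, interval 4.74 to 37.4). Rpl39, a very small protein near the exit of the peptide tunnel, was 2.71 higher. It was above 5 TPM in all 27 traced cells and in 20 of 24 Postn- cells, with medians of 9.59 and 7.65. The highest cells of both classes were alike for Rps27l and for Rpl39 (10.98 and 11.17), and the classes differed in their medians and in the number of undetected cells.

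Among core genes with few cells at 0, Rpl15 and Rpl6, both of the large subunit, stood out. Rpl15 was 9.34 ± 0.69 on the log2 scale in traced and 7.11 ± 2.38 in Postn- cells (712 and 324 TPM), and was detected in 27 of 27 and 23 of 24 cells. Rpl6 was 9.86 ± 0.98 and 7.70 ± 2.67 (1123 and 538 TPM). Both were singled out after their values were seen. Rpl38, a large-subunit protein with a role in translating Hox mRNAs, was 2.11 higher in traced cells, with detection in 26 of 27 traced and 19 of 24 Postn- cells. The most abundant member, Rpl41, had 7635 TPM in traced and 4314 TPM in Postn- cells, and Rps19 had 6506 and 5144 TPM.

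Only 3 members were lower in traced cells, each by less than 1 log2 unit. Rplp2, a protein of the acidic stalk that recruits elongation factors, was 10.44 ± 2.40 in traced and 10.76 ± 1.08 in Postn- cells, a difference of -0.32. Rps27 differed by -0.08 and Rpl23a, a tunnel-exit protein, by -0.05. The paralog Rps27l thus differed by the most of any member between these classes, while its parent Rps27 hardly differed.

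**Figure D4:**
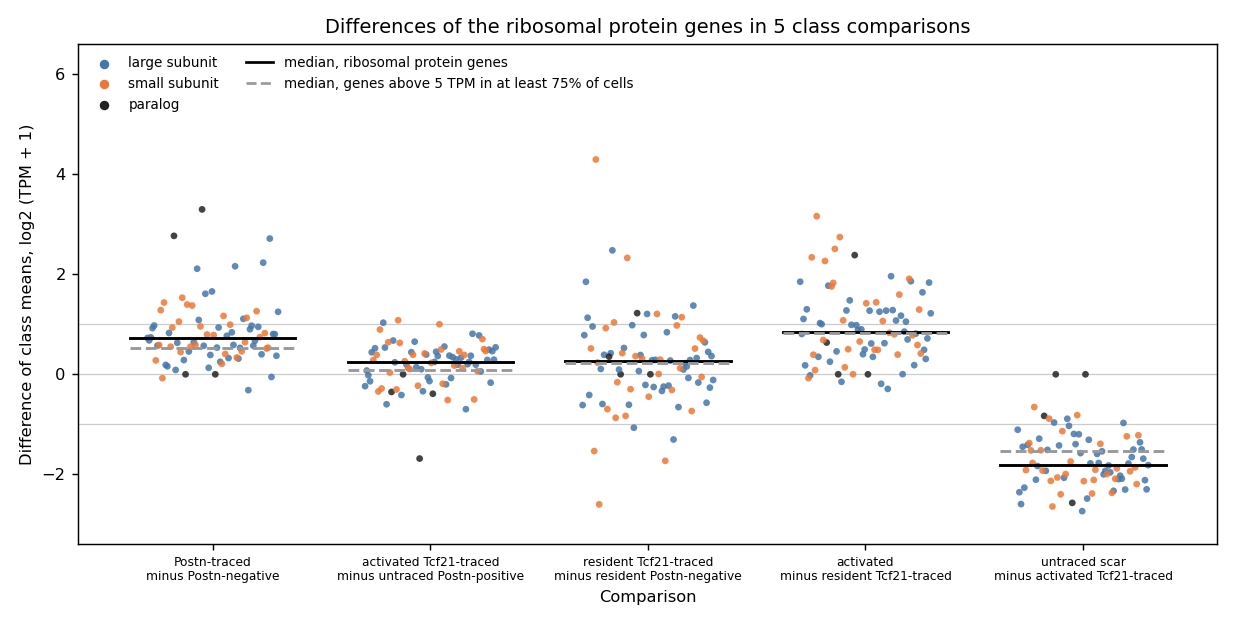
Difference of class means of log2 (TPM+1) for each member in the 5 class comparisons, with 1 point per member, a line at the member median and a dashed line at the median of widely detected genes. Members are mostly above 0 for Postn-traced minus Postn- cells (75 of 79) and activated minus resident Tcf21-traced cells (73 of 79), and below 0 for scar minus activated Tcf21-traced cells.

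In the Tcf21-tracer capture, activated Tcf21-traced cells were compared with untraced Postn+ cells. Their mean shares were 12.99 ± 2.21% and 13.5 ± 2.96%, a difference of -0.526 percentage points that was smaller than the SD of either class, and the median member differed by 0.25 log2 units. Smooth muscle markers held 0.0465% of TPM in Tcf21-traced and 0.121% in untraced Postn+ cells, and their part was not tested. The median of all genes was 0.00 and that of widely detected genes 0.09. With medians over cells the median member differed by 0.005 log2 units. By TPM, 38 of 76 core genes (50%) were higher in Tcf21-traced cells, with a median ratio of 0.987. Of all genes 51.1% were higher by TPM, and of the other widely detected genes 53.4%. Of the members, 2 were more than 1 log2 unit higher in Tcf21-traced cells, where 3.34% of all genes and 9.58% of widely detected genes were, and 1 was lower, where 5.05% and 4.71% were. Centring each cell on its median gene shifts every gene of a comparison by the same amount, here from 0.00 to -0.26 for the median of all genes. The median member thereby went to -0.014 and changed sign, while its distance of 0.25 from the median of all genes could not change. The shares of all genes called became 1.63% higher and 9.38% lower.

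Rpl3, next to the peptidyl transferase centre, was among the higher members, at 10.86 ± 1.25 against 9.83 ± 2.69. It was detected in 18 of the 19 untraced cells, and 1 cell of that class had only 38 members above 5 TPM. Rps23, a protein of the decoding site, was close behind, with 2655 TPM in Tcf21-traced and 2084 TPM in untraced cells. Rps27l was the 1 member lower in Tcf21-traced cells, by -1.68, with detection in 37 of 44 against 18 of 19 cells. The stalk proteins Rplp2 and Rplp1 were lower by less, at -0.70 and -0.60, with 2735 against 4462 TPM and 2330 against 3442 TPM.

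Within 1 capture, resident Tcf21-traced cells and resident Postn- cells had shares of 10.6 ± 2.01% and 9.65 ± 2.49%, a difference of 1.001 percentage points within the SD of either class. Members differed in both directions: 12 were more than 1 log2 unit higher in Tcf21-traced cells, where 8.65% of all genes and 23.5% of widely detected genes were, and 5 were lower, where 6.55% and 14% were. The median member was 0.27 higher and the median widely detected gene 0.22 higher. Myeloid markers, of which Lyz2 was the most abundant, held 0.00158% of TPM in Tcf21-traced and 0.0845% in Postn- cells. In the latter 1 cell had at least 3 of the 6, and the SD of 0.293% is what 1 cell carrying the whole value would give. Pericyte markers held 0.00116% and 0.00873%, and the RNA-quality and stress list (genes named below) 1.61% and 1.92%. Higher in Tcf21-traced cells were endothelial (0.00498% and 0.000936%), smooth muscle (0.0103% and 0.00495%) and cardiomyocyte markers (0.00583% and 4.43e-05%). The cardiomyocyte SD of 0.0240% over Tcf21-traced cells is again what 1 cell carrying the whole value would give. The endothelial and smooth muscle SDs over these cells, 0.0141% and 0.0262%, exceeded their means. The part of these lists in the differences was not tested.

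Rps26, a small-subunit protein at the mRNA exit, had the widest difference of any member in any comparison, 4.29 log2 units. It was detected in 8 of 12 resident Postn- cells (66.7%, interval 34.9 to 90.1) with a median of 5.89, and in 17 of 17 resident Tcf21-traced cells (interval 80.5 to 100) with a median of 10.13. The highest cells of both classes were close, at 11.50 and 11.63, and mean TPM differed less, with 678 against 1337. Rpl17, a tunnel-exit protein, was 2.48 higher and Rps24 was 2.33 higher. Rps24 and Rps26 are, like Rps19, mutated in Diamond-Blackfan anemia. In the other direction Rps27a, made as a fusion with ubiquitin, was -1.73, and Rps3, at the mRNA entry, was -1.53. These classes held 12 and 17 cells, so that a few undetected cells weigh heavily in a mean.

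Across captures, activated Tcf21-traced cells were compared with resident Tcf21-traced cells, the nearest pair in these data to the same lineage with and without MI. The mean share was 12.99 ± 2.21% after MI and 10.6 ± 2.01% without, a difference of 2.34 percentage points, close to the SD of either class. Of 44 activated cells, 40 lay above the median resident cell and 13 above the highest. Injury and capture cannot be told apart here. The RNA-quality and stress list (Malat1, Neat1, Rn45s, Hspa1a, Hspa1b, Fos, Jun and Atf3; most abundant Rn45s) held 0.866% of TPM in activated and 1.61% in resident cells. Smooth muscle markers, led by Tagln, held 0.0465% in activated and 0.0103% in resident cells, and pericyte markers, led by Pdgfrb, 0.0142% and 0.00116%. The part of these lists in the difference was not tested.

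In this pair 35 members were more than 1 log2 unit higher after MI, or 44.3%, beside 16.9% of all genes and 43.5% of widely detected genes, and 0 were lower, beside 2.65% and 8.77%. The medians were 0.85 for members, 0.82 for widely detected genes and 0.16 for all genes. The members were thus close to widely detected genes in this setting, but not with medians over cells, where 12 members (15.2%) stood beside 34.9% of widely detected genes. With centred cells 53 members (67.1%) stood beside 57.8% of widely detected and 29.4% of all genes. Centred counts follow an equal shift of every gene, under which the member median stayed 0.03 log2 units above that of widely detected genes. The sign of this distance depended on other settings. It was -0.09 with medians over cells, -0.03 with a pseudocount of 0.1 and 0.14 with a pseudocount of 5. By TPM, 64 of 76 core genes (84.2%) were higher after MI, where 55.7% of all genes and 55.1% of the other widely detected genes were, with a median ratio of 1.25 and a range from 0.729 (Rpl6) to 2.47 (Rps3). Rpl6, among the largest differences between Postn-traced and Postn- cells, was thus the core gene with the lowest ratio here.

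Large differences after MI were found in genes that some resident cells lacked. Rps12, a protein of the small subunit, was 10.22 ± 0.93 in activated and 7.47 ± 4.53 in resident cells, with detection in 44 of 44 and 13 of 17 cells. Its median differed much less, with 10.32 against 9.94. Rps10, at the small-subunit head, was 9.90 ± 0.88 and 7.39 ± 3.77, and its medians of 10.09 and 7.89 kept the distance. Rpl6 was 9.35 ± 1.32 in activated and 9.64 ± 1.67 in resident cells, a difference of -0.29, and Rpl13 and Rpl37a differed by -0.19 and -0.15.

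**Figure D5:**
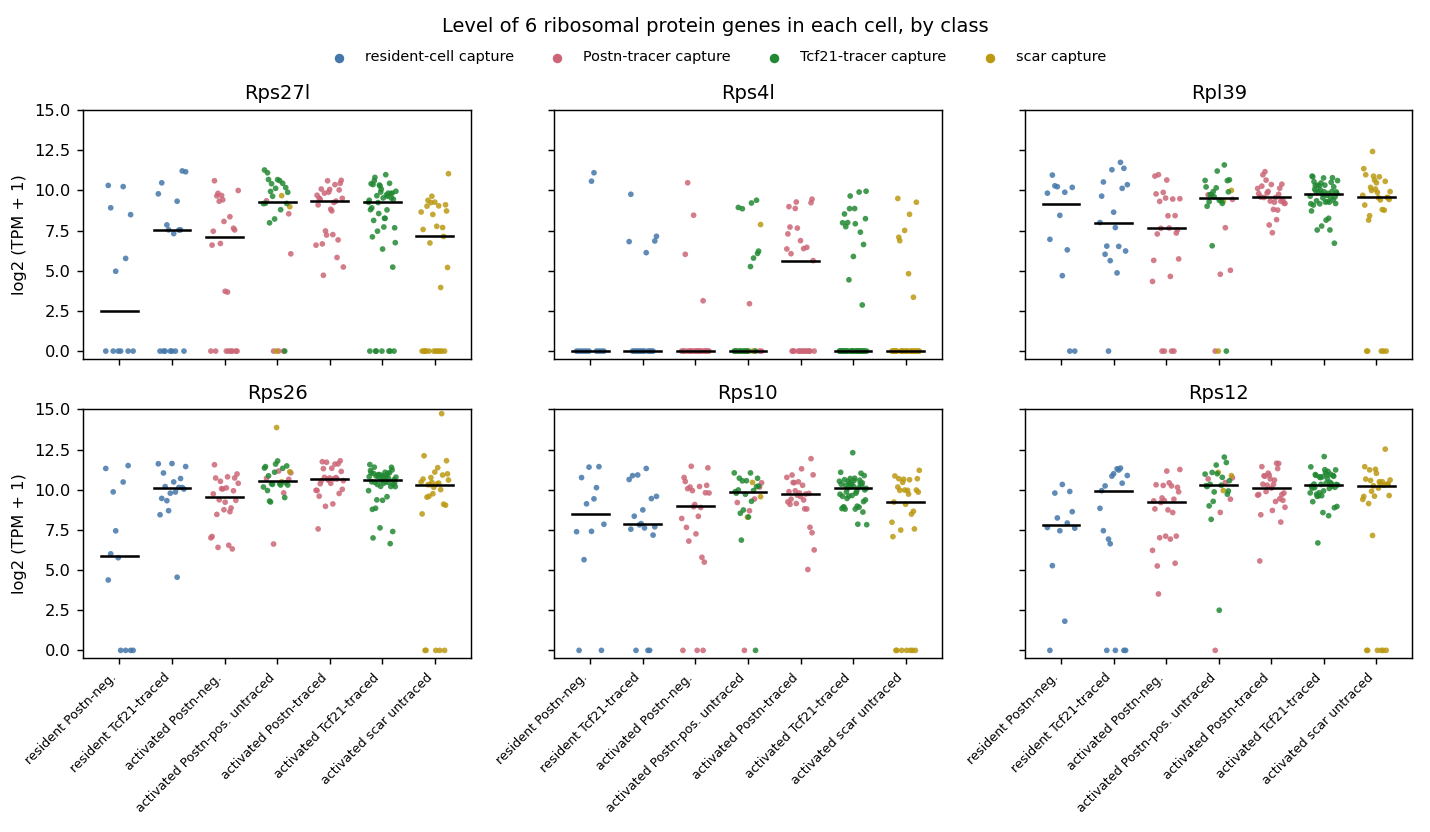
Level of 6 members with wide class differences (vertical axis, log2 of TPM plus 1) in each cell, by class, coloured by capture and with a line at each median. Rps27l runs from 4.72 to 10.63 in Postn-traced cells and from 0 to 10.60 in activated Postn- cells, and Rps26 from 4.56 to 11.63 in resident Tcf21-traced and from 0 to 11.50 in resident Postn- cells.

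The untraced scar cells differed from activated Tcf21-traced cells in detection and hardly in summed share. Their shares were 12.7 ± 4.71% and 12.99 ± 2.21%, a difference of -0.270 percentage points, while the median member was -1.82 log2 units. In scar cells 71 members were more than 1 log2 unit lower (89.9%), beside 13.2% of all genes and 70.9% of widely detected genes, and 0 were higher, beside 1.11% and 0%. Without the cells of few genes only 6 members were lower, beside 6.35% of all genes and 20.1% of widely detected genes, so the low cells carried the count. The median member was then -0.35 log2 units, beside -0.36 for widely detected genes. With medians over all cells it was -0.38, beside -0.59. Pericyte markers held 0.0330% of TPM in scar and 0.0142% in Tcf21-traced cells, smooth muscle markers 0.0216% and 0.0465%, and epicardial markers, led by Wt1, 0.00896% and 0.000197%. The RNA-quality and stress list held 1.15% and 0.866%, with 2 of its 8 genes more than 1 log2 unit higher in scar cells and 0 lower. The part of these lists was not tested. With all cells, Rpl7a (-2.73, 23 of 29 cells detected), Rps10 (-2.64, 22 of 29) and Rpl19 (-2.59, 22 of 29) differed most. By mean TPM 28 of 76 core genes (36.8%) were higher in scar cells, beside 39.1% of all genes and 36.5% of the other widely detected genes, up to 3.82 times for Rpl38, whose mean of 3661 TPM rests on the cells named above where it was the top member.

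The shift that centring gives to every gene took the median of all genes from 0.19 to 0.71 for Postn-traced minus Postn- cells and from 0.16 to 0.61 for activated minus resident Tcf21-traced cells. For scar minus activated Tcf21-traced cells it went from -0.12 to -0.95, with 78 members lower beside 91.9% of widely detected genes and 45.4% of all genes. Counts past 1 log2 unit follow this shift, while the distance of the members from other genes is fixed under it.

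How far members varied together across cells differed between classes. Over the 2850 pairs of core genes, the median Pearson correlation of log2 levels lay between 0.0369 (17 resident Tcf21-traced cells) and 0.191 (27 Postn-traced cells) in 5 classes. It was 0.472 in the 19 untraced Postn+ cells of the Tcf21-tracer capture and 0.725 in the 29 scar cells. Over pairs of the 539 other widely detected genes it was 0.00848, 0.0704, 0.112 and 0.424 in these 4 classes. All values of a cell share its library and depth, the scar class holds cells of few genes, and the untraced Postn+ class holds the cell with 38 members. Among 1568 genes outside the members that were above 5 TPM in at least 50% of cells, those most like the member share, averaged over the 4 captures of 33, 57, 63 and 32 cells, were Ndufa2 (0.347), the pseudogene Rpl14-ps1 (0.337), Wdr92 (0.318), DQ072386 (0.278) and Aebp1 (0.277). Those least like it were Dpysl2 (-0.461), Ckb (-0.335), Gsk3b (-0.286), Actb (-0.281) and Pdcd10 (-0.271). Abundant genes such as Actb share the fixed TPM total with the members.

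Some ribosomal proteins have genes that fall outside the name rule. Rps3a1, a core small-subunit protein, was at 2990 TPM in 97.8% of cells. Fau, in which the S30 protein is made as a fusion, was at 1041 TPM. It was 1.29 log2 units higher in Postn-traced than Postn- cells and 1.55 higher in activated than resident Tcf21-traced cells. The paralogs Rpl22l1 and Rpl36al were at 531 and 551 TPM, so Rpl22l1 exceeded its parent Rpl22 at 68.3 TPM. Rpl22l1 was 1.53 higher in Postn-traced than Postn- cells and 2.10 higher in activated than resident Tcf21-traced cells, and Rpl36al was 0.88 and 2.63 higher. The third such paralog, Rpl7l1, was at 55.9 TPM.

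Other parts of the translation machinery were compared by counts, medians and summed shares. For Postn-traced minus Postn- cells, 16.7% of all genes and 33.3% of widely detected genes were past 1 log2 unit upward, and the count was 14 of 26 for initiation factors (median 1.19) and 37 of 76 for mitochondrial ribosomal protein genes (median 0.98). The same counts for activated minus resident Tcf21-traced cells, where all genes gave 16.9% and widely detected genes 43.5%, were 17 of 26 (median 1.25) and 45 of 76 (median 1.28). Genes of the secretory entry site such as Sec61b were more than 1 log2 unit higher in 13 of 20 cases with a median of 1.49, and in 19 of 20 with a median of 2.18. Sec61a1, the most abundant of them, differed by 0.39 in the first comparison and by 4.71 in the second. In the second it was detected in 40 of 44 activated and 8 of 17 resident cells, so undetected cells weigh heavily. Among 12 other genes with TOP mRNAs, such as Tpt1 and Vim, 5 were higher in the first comparison (median 0.84) and 6 in the second (median 1.27). Of the elongation factors 2 of 5 were higher in both comparisons, with medians of 0.68 and 0.76. Eef1a1, as abundant as the highest members at 6322 TPM, differed by 0.02 and 0.06. Ribosome biogenesis genes differed least among these lists in both, with 5 of 30 (median 0.37) and 10 of 30 (median 0.68). On this scale the medians of the cytosolic ribosomal protein genes, 0.73 and 0.85, lay below those of the other TOP mRNAs, initiation factors, mitochondrial ribosomal proteins and secretory genes.

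By summed share of TPM the order was not the same. The member share was 10.1% in activated Postn- and 13.2% in Postn-traced cells, while initiation factors held 0.563% in the former and 0.463% in the latter and mitochondrial ribosomal protein genes 0.571% and 0.647%. Between resident and activated Tcf21-traced cells initiation factors went from 0.491 to 0.570% and mitochondrial ribosomal protein genes from 0.656 to 0.666%, beside 10.6 and 12.99% for the members. The other TOP mRNAs went the same way as the members, with 1.17% in Postn- and 1.47% in Postn-traced cells, and 1.15% in resident and 1.42% in activated Tcf21-traced cells. Secretory genes were higher by share as well, with 0.468% in Postn- and 0.602% in Postn-traced cells, and 0.372% in resident and 0.665% in activated Tcf21-traced cells. Elongation factors held 0.865% and 0.872% in the first pair and 0.773% and 0.832% in the second. Ribosome biogenesis genes, led by Myc, were lower by share, against the sign of their log2 medians, with 0.222% in Postn- and 0.166% in Postn-traced cells and 0.181% in resident and 0.159% in activated Tcf21-traced cells.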

How the data were processed

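The authors aligned reads with Bowtie 1.0.0 to mm10 transcripts and estimated levels with eXpress 1.5.1, and deposited the values as log2 (TPM+1). The labels conflict on the unit, since the title of the deposited table names FPKM and its header TPM. With the log and the pseudocount of 1 removed, totals per cell lay between 999257 and 1000000, the total of TPM, and the values were used as such. A gene counted as detected above 5 TPM. Genes per cell ranged from 141 to 5419 (median 2770); read depth per cell is not in the table. Detection shares carry exact Clopper-Pearson 95% intervals, which cover counting error between cells only. All cells were used, and 3 columns that belong to no sample were not used. Named genes followed rules on level, class difference, spread and correlation with the share, and others are marked as singled out after their values were seen. Members and lists were chosen with earlier results of these data known. Differences above 1 log2 unit were counted and no test was made. Alternatives covered the minimum, the pseudocount, centring, medians, the members and cells of few genes. Start regions came from RefSeq on GRCm38.p6. Scripts, tested on simulated data, ran under Python 3.11.15 with pandas 2.3.3 for tables, NumPy 2.4.6 for arithmetic, SciPy 1.17.1 for intervals and Matplotlib 3.10.9 for figures.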

Additional observations from a re-analysis of the deposited data

How the results depend on the processing

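Of the headline values under alternative settings, 170 kept their direction and stayed close (counts within 1.5 times, other values within 1 SD over cells), 17 moved and 1 was reversed. With the 50 most abundant other genes left out of the cell total, the member share was 12.3% in resident Postn- cells, 13.4% in resident Tcf21-traced cells, 12.8% in activated Postn- cells, 16.2% in untraced Postn+ cells, 16.7% in Postn-traced cells and 16.2% in activated Tcf21-traced cells, since a smaller total raises every share by construction. Members more than 1 log2 unit higher in Postn-traced than Postn- cells numbered 20 in the main setting, 11 with medians over cells and 57 with centred cells. For activated Tcf21-traced minus untraced Postn+ cells the 2 higher members became 0 with medians, 6 with a pseudocount of 0.1, 0 with a pseudocount of 5 and 0 with centred cells, the 1 lower member became 0 with medians, and the median member went from 0.25 to -0.014 with centred cells, a change of sign that follows from the equal shift centring gives to every gene. For activated minus resident Tcf21-traced cells the 35 higher members became 12 with medians and 53 with centred cells. For scar minus activated Tcf21-traced cells the 71 lower members became 2 with medians and 6 without the cells of few genes. Centred counts follow the same kind of shift, and the scar count of 6 follows from leaving out the cells of few genes. For the other changes in counts the cause was not tested. The number of cells per class, 12 to 44 in the compared classes, limits how well detection is known, and a gene at 0 in a cell may be present below 5 TPM. Mice cannot be told apart, so differences between animals are part of every class difference. Comparisons across captures hold capture and class together.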

Other observations

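Gnb2l1, the gene now called Rack1, encodes a protein that sits on the small subunit but has no ribosomal protein name. Its mean log2 (TPM+1) was 6.53 in the resident-cell capture, with detection in 72.7% of cells, and 9.69, 9.59 and 8.17 in the Postn-tracer, Tcf21-tracer and scar captures, with detection in 98.2%, 96.8% and 81.2%. Among biogenesis genes Nop58 differed by -2.32 between Postn-traced and Postn- cells, against the direction of the list median. Myc, a driver of ribosomal gene transcription, was at a mean of 389 TPM over all cells. Sec61a1, the channel through which secreted proteins enter the endoplasmic reticulum, was 4.71 log2 units higher in activated than in resident Tcf21-traced cells. It was detected in 40 of 44 activated and 8 of 17 resident cells, and these classes come from different captures.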
